A study of Mus musculus with 16 samples.

Results

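Transcripts of 10 genes of the contractile cytoskeleton and of the actin-regulated growth response were followed in mouse embryonic stem cells (ESCs) depleted of RAM. The genes were Tagln, Myl9, Tpm1, Acta2, Cnn1, Cnn2, Vcl, Ccn1, Ccn2 and Ankrd1, taken by name from a table of 46983 genes. The set was chosen by its input values, since Tagln, Ccn2 and Myl9 were among the larger differences between RAM siRNA and control cells in cytoplasmic RNA, so that contrast is described for these genes and not tested. Of the 10 genes, 7 reached 1 CPM (reads of a gene after scaling every library to equal size) in at least 10 of the 16 libraries and entered the fits of 12805 genes. Acta2, Cnn1 and Ankrd1 did not, and they are described by their counts.

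The cells in every group were 46C ESCs, a line derived from 129Ola mice that expresses Sox1-GFP, grown on gelatin with LIF. They were transfected with RAM siRNA or with a non-targeting control and harvested at 48 hr in the presence of cycloheximide. Part of each lysate was kept as input (cytoplasmic RNA) and the rest was resolved on sucrose, from which the polysome fractions were pooled, giving the groups input control, input RAM siRNA, polysome control and polysome RAM siRNA with 4 libraries each. RNA was depleted of ribosomal RNA and sequenced with a stranded kit, and libraries held from 16647523 to 20147833 counts. All cultures came from a single reporter line, and RAM was depleted rather than deleted. Ramac, which encodes RAM, fell from 10.7 ± 0.606 CPM (SD, n = 4 libraries) in input control to 3.0 ± 0.232 CPM (SD, n = 4) in input RAM siRNA.

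RAM binds and activates RNMT, the enzyme that methylates the guanosine cap of mRNA. Actomyosin is the contractile assembly of actin filaments and non-muscle myosin II, and many of its genes are controlled by serum response factor (SRF), which binds the CArG box and whose myocardin-related cofactors are held back by monomeric actin. YAP and TAZ respond to cell tension and adhesion, are restrained by the Hippo kinases, and act through TEAD factors on genes that include Ccn1 and Ccn2. Pluripotent cells express high levels of the non-muscle actins and low levels of the smooth muscle forms.

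The promoter sequences of the set are shown because the CArG box and the TEAD motif are the elements by which these genes are classed. RefSeq windows on GRCm38.p6, from 250 bases before the start site to 50 bases after it, were used for 8 of the 10 genes, all but Tagln and Ccn2. Both strands were searched for exact matches to the CArG box, CCWWWWWWGG with W for A or T. The TEAD motif searched was CATTCC, which reads GGAATG on the other strand. Near matches to the CArG box were not counted, such as ccctatatgg in the window of Acta2, which has a C in place of the first W. The 250 bases before the start site follow for Myl9 at chr2:156775214-156775463 on the plus strand, Cnn2 at chr10:79988350-79988599 on the plus strand, Vcl at chr14:20929148-20929397 on the plus strand and Ccn1 at chr3:145649986-145650235 on the minus strand. Each is written 5′ to 3′ with the matches in capitals.
Myl9: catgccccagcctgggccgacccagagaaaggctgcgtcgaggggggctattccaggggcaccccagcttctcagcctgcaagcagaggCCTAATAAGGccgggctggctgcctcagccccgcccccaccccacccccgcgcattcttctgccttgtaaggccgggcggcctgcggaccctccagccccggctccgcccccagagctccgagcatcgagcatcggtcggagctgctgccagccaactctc
Cnn2: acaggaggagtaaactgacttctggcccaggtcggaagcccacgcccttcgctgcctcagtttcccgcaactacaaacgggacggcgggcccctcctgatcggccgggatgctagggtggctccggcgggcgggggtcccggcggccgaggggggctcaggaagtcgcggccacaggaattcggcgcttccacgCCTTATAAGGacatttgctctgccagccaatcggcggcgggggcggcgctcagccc
Vcl: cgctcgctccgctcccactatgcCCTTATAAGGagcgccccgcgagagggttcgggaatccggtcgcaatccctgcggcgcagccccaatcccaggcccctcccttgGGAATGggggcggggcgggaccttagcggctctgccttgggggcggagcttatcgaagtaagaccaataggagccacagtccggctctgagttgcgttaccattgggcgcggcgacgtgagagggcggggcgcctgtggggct
Ccn1: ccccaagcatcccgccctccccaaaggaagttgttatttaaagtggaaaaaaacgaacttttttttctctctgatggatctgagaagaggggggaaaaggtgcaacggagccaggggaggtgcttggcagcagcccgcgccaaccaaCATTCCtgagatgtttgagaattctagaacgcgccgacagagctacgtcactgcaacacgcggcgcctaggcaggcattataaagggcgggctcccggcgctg

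A CArG box was found in 3 of the 8 windows, those of Myl9, Cnn2 and Vcl, and in 535 of 32851 windows of all genes (1.63%). Its first base lay 161 bases before the start site in Myl9, 56 bases before it in Cnn2 and 227 bases before it in Vcl. Cnn2 and Vcl held the same 10-base element, CCTTATAAGG, and Myl9 held CCTAATAAGG. The TEAD motif was found in 5 of the 8 windows and in 4817 of all windows (14.7%). It lay 103 bases before the start site in Ccn1 and 143 bases before it in Vcl, the only window of the 8 with both elements. The matches of the other genes are given with 10 bases on either side, 146 bases before the start site in Acta2, 56 bases in Tpm1, and 210 and 123 bases in Ankrd1. These are matches of letters and not measured binding, and the window of Cnn1 held neither element.
Acta2: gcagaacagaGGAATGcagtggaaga
Tpm1: gctgtcctaaGGAATGcggtcgcccc
Ankrd1, distal match: cactgccaaaGGAATGaccctctcac
Ankrd1, proximal match: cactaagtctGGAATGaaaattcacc

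The polysome libraries differed more between replicates than between siRNAs, and this is given before the results. Replicate number accounted for 80.3% of the variance between polysome libraries and siRNA for 11.2%, over the 9135 genes that averaged 10 CPM or more. In input the shares were 50.2% and 40.0%. The polysome RAM siRNA library of replicate 2 lay farthest from the others on the first principal component, and the input RAM siRNA library of replicate 4 lay farthest on the second. Comparisons in polysomes are therefore given without and with replicate number as a factor, termed the replicate block, and without replicate 2.

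Within input control, levels per kilobase of exon set the order of the 10 genes. The most abundant were the CCN genes, Ccn1 at 173 ± 11.4 CPM per kb (SD, n = 4) and Ccn2 at 133 ± 10.8. Vcl followed at 36.3 ± 3.03, Cnn2 at 18.3 ± 2.89, Tpm1 at 15.3 ± 1.85, Myl9 at 8.46 ± 3.99 and Tagln at 4.77 ± 1.52 CPM per kb. Acta2 (0.114), Cnn1 (0.0789) and Ankrd1 (0.0194 CPM per kb) lay below all of these. Ranges overlapped between Cnn2 and Tpm1, between Myl9 and Tagln, and among the 3 lowest genes, and the other neighbours in the order were separated in all libraries. In input RAM siRNA, Ccn2 had the highest mean, 320 ± 45.9 CPM per kb against 248 ± 22.7 for Ccn1 (SD, n = 4), with overlapping ranges. The order of Tpm1 and Cnn2 also changed there, to 27.7 ± 1.69 and 23.4 ± 1.47 CPM per kb, and these did not overlap.

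Tagln encodes transgelin, an actin-binding protein of smooth muscle and an SRF target. It lies on chromosome 9 of GRCm38 from 45929619 to 45936058 on the minus strand, and its exons overlap those of Pcsk7 on the other strand, a gene with 11918 reads over all 16 libraries against 6094 for Tagln. In input, the control libraries of replicates 1 to 4 had 12.2, 7.09, 6.65 and 12.04 CPM, and the RAM siRNA libraries had 27.6, 26.5, 20.7 and 32.0 CPM. Every RAM siRNA library lay above every control library, and the mean was 2.82 times the control mean. Its log2 difference of 1.49 was the 12th highest among the 12805 genes in input, in the contrast that chose it. In polysomes the control libraries had 21.3, 10.2, 9.85 and 20.8 CPM and the RAM siRNA libraries 40.6, 22.7, 22.2 and 48.2 CPM. The groups were again separated, with replicates 1 and 4 high and replicates 2 and 3 low in each.

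Myl9 encodes the regulatory light chain of non-muscle and smooth muscle myosin II. Its input control libraries had 13.4, 8.13, 4.03 and 13.8 CPM and its input RAM siRNA libraries 22.1, 19.7, 12.1 and 28.3 CPM. RAM siRNA was higher in each same-numbered pair and the mean was 2.09 times the control mean, but replicate 3 with RAM siRNA lay below control replicates 1 and 4. In polysomes the control libraries had 16.2, 7.77, 7.88 and 22.9 CPM and the RAM siRNA libraries 28.6, 14.1, 17.6 and 44.0 CPM. Replicates 1 and 4 were the highest in each of the 4 groups, as for Tagln, and the polysome groups overlapped.

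Tpm1 encodes a tropomyosin, which lines actin filaments. In input it had 106, 84.5, 95.8 and 112 CPM in control libraries and 182, 167, 176 and 193 CPM in RAM siRNA libraries, with no overlap and a ratio of means of 1.80. In polysomes it had 96.1, 72.6, 92.8 and 130 CPM in control and 133, 93.2, 130 and 195 CPM with RAM siRNA. The polysome groups overlapped, and within each pair RAM siRNA was higher. Cnn2 encodes calponin 2, an actin-binding protein of non-muscle cells. Its mean in input was 45.1 ± 7.11 CPM in control and 57.5 ± 3.60 CPM with RAM siRNA (SD, n = 4), without overlap, whereas in polysomes it was 73.9 ± 18.0 and 72.2 ± 17.6 CPM.

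Vcl encodes vinculin, which links integrin and cadherin adhesions to actin. Its input libraries overlapped, with a mean of 298 ± 24.8 CPM in control and 314 ± 33.0 CPM with RAM siRNA (SD, n = 4). In polysomes the control libraries had 227, 309, 135 and 160 CPM and the RAM siRNA libraries 216, 557, 128 and 140 CPM. Replicate 2 was the highest in both polysome groups, and in the remaining 3 pairs RAM siRNA was lower than control. Exons of Vcl, with 78618 reads over all 16 libraries, overlap those of Ap3m1 on the other strand, with 12470.

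**Figure D1:**
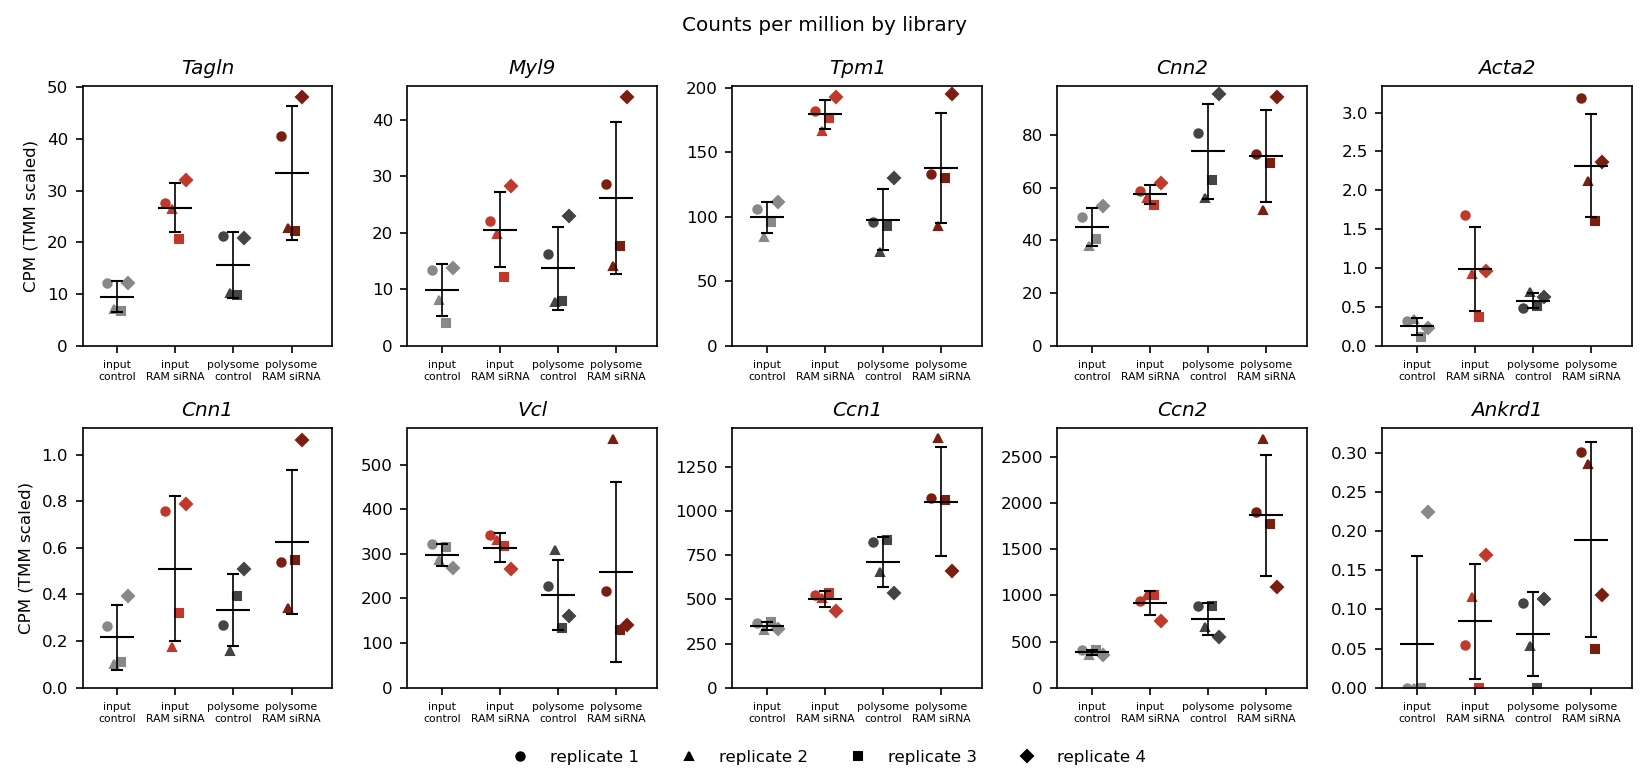
Each panel gives 1 gene, with TMM-scaled CPM on the y axis (from 0, with its own scale) and the 4 groups on the x axis. Points are libraries, marker shapes are replicate numbers, and bars are the mean and SD of 4 libraries. Tagln and Ccn2 are separated between siRNAs in both fractions and Acta2 in polysomes, with a tie at 7 reads in input, and the Vcl polysome panel shows the single library at 557 CPM.

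The remaining contractile genes were near the detection limit. Acta2, the smooth muscle alpha-actin, had 6, 7, 2 and 4 reads in input control and 31, 16, 7 and 17 reads in input RAM siRNA. In polysomes it had 9, 13, 9 and 11 reads in control and 53, 37, 32 and 40 with RAM siRNA, so that 42 reads in all stood against 162. Cnn1, calponin 1 of smooth muscle, had 16 reads over the 4 input control libraries and 37 over the 4 input RAM siRNA libraries, and 24 and 44 in polysomes. Ankrd1, a cardiac ankyrin repeat protein gene and a YAP target, had 4 and 6 reads in input and 5 and 13 in polysomes over 4 libraries each. A count of 0, which Ankrd1 had in several libraries, allows up to 3 reads, or 0.1497 to 0.1804 CPM depending on the library, for counting error only. Actin genes share long stretches of coding sequence, and how the counting treated reads that match several of them is not given in the sources used here, so the Acta2 values are uncertain.

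Ccn1 and Ccn2 encode secreted matricellular proteins that bind integrins, formerly CYR61 and CTGF. In input Ccn2 had 407, 354, 409 and 354 CPM in control libraries and 935, 1003, 999 and 724 CPM in RAM siRNA libraries, with no overlap and a ratio of means of 2.40. In polysomes it had 886, 656, 888 and 548 CPM in control and 1904, 2694, 1776 and 1092 CPM with RAM siRNA, also with no overlap. Its log2 difference in input was 1.26, and Gm15270 overlaps its exons on the other strand with 419 reads over all 16 libraries. Ccn1 had 365, 326, 373 and 333 CPM in input control and 524, 507, 538 and 435 CPM in input RAM siRNA, a ratio of means of 1.44 without overlap. In polysomes Ccn1 had 824, 657, 836 and 538 CPM in control and 1077, 1417, 1062 and 660 CPM with RAM siRNA. The RAM siRNA library of replicate 4 lay below 2 of the polysome control libraries there.

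In input, 6 of the 10 genes had all RAM siRNA libraries above all control libraries, Tagln, Ccn1, Ccn2, Acta2, Tpm1 and Cnn2. For Acta2 the nearest control and RAM siRNA libraries held 7 reads each and were apart only after scaling (0.349 and 0.374 CPM). Of the genes tested, 9.33% were separated in the higher direction and 8.68% in the lower direction, and since this contrast chose the set the count is a description. The log2 differences of the 7 genes in the fit ran from 0.08 for Vcl to 1.49 for Tagln, with Cnn2 at 0.35, Ccn1 at 0.52, Tpm1 at 0.85, Myl9 at 1.06 and Ccn2 at 1.26. Without replicate 4, whose RAM siRNA library stood apart in input, and with the replicate block, they ran from 0.10 to 1.54. In bulk RNA, fewer cells expressing a transcript and less RNA per cell cannot be told apart, and this holds for each value given here.

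Polysomes were sequenced from the same cultures but in libraries that did not enter the choice of genes. Deviations of same-numbered libraries were correlated between fractions, with Pearson's r of 0.239 to 0.575 in control and 0.298 to 0.712 with RAM siRNA. Culture differences that favoured a gene in input can therefore recur in polysomes, and the polysome tests of these genes, here and below, are not independent of the choice. There 3 of the 10 genes had all RAM siRNA libraries above all control libraries, Tagln, Ccn2 and Acta2, as did 2.17% of the genes tested, while 4.4% were separated in the lower direction and none of the 10 genes was. For each of the 3 a two-sided exact permutation test gave p = 0.0286, the smallest that 4 against 4 libraries allow, with differences of 1.06, 1.28 and 1.05 in mean log2(CPM + 1). The pseudocount of 1 CPM shortens the difference of Acta2, whose levels were near it. By the same exact permutation test p was 0.0857 for Ccn1, 0.143 for Myl9, Tpm1, Cnn1 and Ankrd1, and 0.886 for Cnn2 and Vcl. These are 10 single tests of chosen genes without adjustment, and the fits across all genes follow.

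In the fit of all genes without the replicate block, 0 of the 7 genes passed the threshold in polysomes, where 0% of the genes tested were called higher and 0.0234% lower (edgeR's quasi-likelihood test, Benjamini-Hochberg adjusted p under 0.05). Unadjusted p was under 0.05 for 1152 genes, or 8.996%. The lowest adjusted p was that of Ccn2, with a log2 fold change of 1.37 (SE 0.29, adjusted p = 0.114, edgeR's quasi-likelihood test), and DESeq2 gave 1.36 (SE 0.30, adjusted p = 9.09e-04). Tagln had 1.15 (SE 0.34, adjusted p = 0.289) in edgeR and 1.14 (SE 0.37, adjusted p = 0.0771) in DESeq2. With no filter on low counts, Acta2 could be fitted and had a log2 fold change of 1.98 (SE 0.32, adjusted p = 0.0301, edgeR's quasi-likelihood test), where 0.0831% of 25266 genes were called higher and 0.0712% lower. Cnn1 had 0.89 (SE 0.47) and Ankrd1 1.34 (SE 0.81) in that fit, each with an adjusted p of 0.732.

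With the replicate block, which pairs libraries by number, 5 of the 7 genes rose in polysomes, against 9.68% of the genes tested called higher and 4.97% lower. Tagln rose by 1.16 on the log2 scale (SE 0.11, adjusted p = 2.59e-05, edgeR's quasi-likelihood test), Myl9 by 0.99 (SE 0.12, adjusted p = 8.73e-05) and Ccn2 by 1.33 (SE 0.16, adjusted p = 1.01e-04). Tpm1 rose by 0.52 (SE 0.11, adjusted p = 0.00448) and Ccn1 by 0.58 (SE 0.14, adjusted p = 0.0122). Cnn2 at 0.01 (adjusted p = 0.953) and Vcl at 0.18 (adjusted p = 0.485) did not pass. Without replicate 2, whose RAM siRNA library stood apart, the blocked fit called 4558 genes in place of 1875 (21.3% of the genes tested higher and 14.3% lower), and the same 5 of the 7 genes rose, with Ccn2 at 1.09 (SE 0.08), Ccn1 at 0.40 (SE 0.08), Tagln at 1.16 (SE 0.09), Myl9 at 1.01 (SE 0.10) and Tpm1 at 0.57 (SE 0.07). Vcl then had -0.05, so its positive value rested on that pair.

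**Figure D2:**
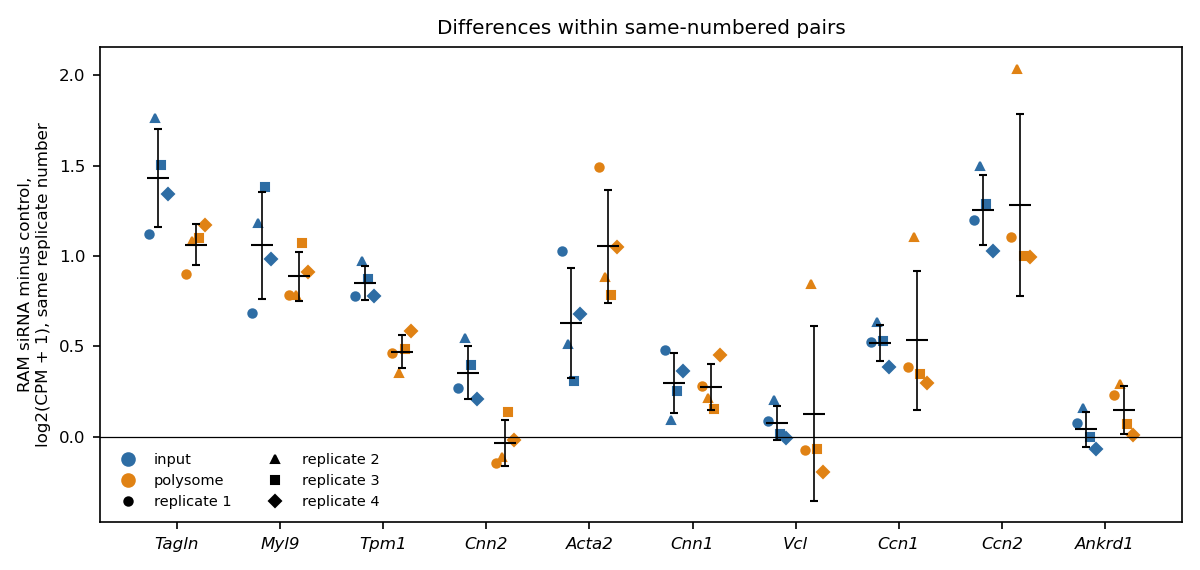
The y axis gives the difference between RAM siRNA and control libraries of the same replicate number in log2(CPM + 1), and the x axis the 10 genes, with input in blue and polysomes in orange. Points are pairs and bars are the mean and SD of 4 pairs. All 4 pairs lie above 0 in both fractions for Tagln, Myl9, Tpm1, Acta2, Cnn1, Ccn1 and Ccn2, and the polysome pair of replicate 2 lies above the other 3 for Ccn1, Ccn2 and Vcl.

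The pairs also show how input and polysomes compare. The difference in polysomes was smaller than that in input in 4 of 4 pairs for Tagln (mean -0.37 ± 0.23, SD, log2), Tpm1 (-0.38 ± 0.18) and Cnn2 (-0.39 ± 0.20). Acta2, whose levels were near the pseudocount, had 0.42 ± 0.06, above 0 in 4 of 4 pairs. Its ratio of mean CPM between siRNAs, however, was 3.94 in input and 4.02 in polysomes. Myl9 had -0.17 ± 0.23, below 0 in 3 of 4 pairs. Cnn1 had -0.02 ± 0.15, below 0 in 2 of 4, but its group means all lay below the pseudocount, which shortens differences. Ankrd1 had too few reads to compare. Ccn1 had 0.01 ± 0.31, Ccn2 0.03 ± 0.36 and Vcl 0.05 ± 0.40, each with the pair of replicate 2 above 0 and the other 3 below it. These values contain the input contrast that chose the genes and carry no test. Over all genes tested, 0 were called for this change without the block (edgeR's quasi-likelihood test, unadjusted p under 0.05 for 100 genes), 1 by DESeq2, and 2 with the block, both lower (0.0156%).

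In control cells the question was how much of each transcript sat on polysomes relative to input, as a share of each library. The input control libraries also entered the contrast that chose the set, in which a low input control value favours a gene, so for these genes the comparison is a description with no test. Ccn1 and Ccn2 were higher in polysomes, by 0.99 (SE 0.15) and 0.92 (SE 0.16) on the log2 scale. Cnn2 had 0.67 (SE 0.18), Tagln 0.67 (SE 0.30), Myl9 0.44 (SE 0.41), Tpm1 -0.06 (SE 0.17) and Vcl -0.56 (SE 0.22). Myl9 had 0.0588 without polysome control replicate 4 and 0.178 without input control replicate 3. The control libraries of Ccn1, Ccn2, Acta2 and Cnn2 were all higher in polysomes than in input, as were those of 30.8% of the genes tested, and those of 30.2% were all lower. For Vcl the groups overlapped, since polysome control replicate 2 had 309 CPM.

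In replicate 4 the contractile genes Tagln, Myl9, Tpm1 and Cnn2 deviated in the opposite direction to the CCN genes and Vcl in both fractions, while Acta2 deviated by -0.003 in input and 0.04 in polysomes. Averaged over both siRNAs, polysome libraries of replicate 4 deviated from their group mean by 0.54 for Tagln, 0.85 for Myl9, 0.49 for Tpm1 and 0.41 for Cnn2 in log2(CPM + 1). In the same libraries Ccn1 deviated by -0.50, Ccn2 by -0.56 and Vcl by -0.46. In input the deviations of replicate 4 had the same signs and were smaller, at 0.32 for Tagln, 0.54 for Myl9, -0.13 for Ccn1 and -0.21 for Ccn2. In replicate 2 the contractile genes Tagln, Myl9, Tpm1 and Cnn2 were low in polysomes, from -0.40 to -0.66, and Vcl was high at 1.01. Replicates are independent cultures without order, and what differed between them was not tested.

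**Figure D3:**
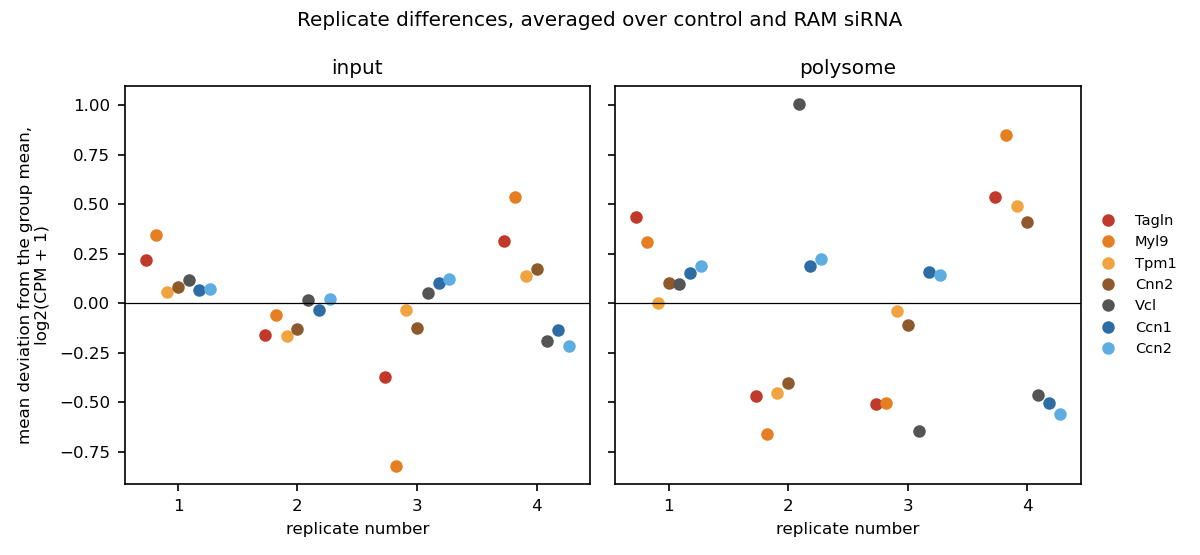
The y axis gives the deviation from the group mean in log2(CPM + 1), averaged over control and RAM siRNA libraries, and the x axis the replicate number, for input (left) and polysomes (right). In replicate 4 the points of Tagln, Myl9, Tpm1 and Cnn2 lie above 0 and those of Ccn1, Ccn2 and Vcl below it in both fractions.

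As a description of likeness, each gene was correlated with the mean z-scored profile of the 7 genes over the 16 libraries. Pearson's r was 0.968 for Tagln, 0.850 for Myl9, 0.810 for Ccn2, 0.674 for Cnn2, 0.657 for Tpm1, 0.633 for Ccn1 and -0.12 for Vcl, where each gene is itself part of the profile. Outside the set the closest gene was Acta1, the skeletal muscle alpha-actin, with r of 0.954. The next were Cacna1s (0.914), Usp17lb (0.913), Dazl (0.909), Il33 (0.890), Egr4 (0.889), Taf7l (0.885), H2-Q7 (0.881), Spesp1 (0.880) and AU022751 (0.878). The libraries share cultures and the siRNA contrast, so these values describe a shared pattern over the 4 groups.

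Acta1 had the largest log2 fold change in input among 23 further actomyosin genes tested, of 27 listed. Likeness to a profile of genes chosen by their input values favours such a change, so this is not a separate observation. This list and those below were also chosen with earlier results of these data known. It had 2.42, 1.65, 0.763 and 2.18 CPM in input control libraries and 9.01, 6.57, 5.82 and 11.7 CPM in input RAM siRNA libraries, and the groups did not overlap. As for Acta2, reads shared with other actin genes make these values uncertain. Its log2 fold change was 2.23 (SE 0.29, adjusted p = 6.04e-04) in input, and in polysomes 2.23 (SE 0.39, adjusted p = 0.0751) without the replicate block and 2.26 (SE 0.16, adjusted p = 9.29e-07) with it, by edgeR's quasi-likelihood test. The 250 bases before its RefSeq start site, at chr8:123894776-123895025 on the minus strand, held a CArG box 73 bases and a TEAD motif 46 bases before the start site, shown in capitals.
Acta1: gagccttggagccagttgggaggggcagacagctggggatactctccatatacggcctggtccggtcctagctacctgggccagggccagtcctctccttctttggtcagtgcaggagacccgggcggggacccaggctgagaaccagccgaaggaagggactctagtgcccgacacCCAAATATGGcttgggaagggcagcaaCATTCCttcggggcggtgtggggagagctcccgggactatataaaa

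Most of the other actomyosin genes did not pass the test in input. Of the 23, 4 rose and 1 fell without the replicate block, and 8 rose and 1 fell with it, where the background was 6.95% higher and 5.94% lower without the block and 20.3% and 19% with it (edgeR's quasi-likelihood test). The median log2 fold change was 0.07 (0.0193 to 0.119 when 1 library was left out), against 0.00 over all genes tested. Tpm2, another tropomyosin, rose by 0.75 (SE 0.15), Smtn, the actin-binding smoothelin, by 0.33 (SE 0.08) and Myl12b, a regulatory light chain like Myl9, by 0.32 (SE 0.09). Rock1, a kinase gene whose product promotes myosin phosphorylation, fell by 0.31 (SE 0.09). Actb was the most abundant gene of the list. The calls of Acta1 and Tpm2 were kept whichever of the 8 input libraries was left out, that of Smtn was lost without control replicate 2 or RAM siRNA replicate 1, and those of Myl12b and Rock1 were lost in 6 and 7 of the 8 cases. In polysomes 0 of the 23 were called without the block, and with it Acta1 and Smtn rose and Rock1 fell. Smtn had 23.9, 59.5, 20.6 and 22.7 CPM in the polysome RAM siRNA libraries, and its log2 fold change with the block was 0.53, or 0.30 without replicate 2 (adjusted p = 0.0242 and 0.0182, edgeR's quasi-likelihood test). Without replicate 2 the blocked polysome fit called 7 higher and 1 lower. The background there was 9.68% higher and 4.97% lower with the block, and 21.3% and 14.3% without replicate 2.

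Among 18 focal adhesion genes tested, 3 rose and 0 fell in input without the replicate block, and 7 rose and 2 fell with it (edgeR's quasi-likelihood test). The background was 6.95% higher and 5.94% lower without the block and 20.3% and 19% with it. Zyx, the adhesion and stress fibre protein zyxin, rose by 0.70 (SE 0.12, adjusted p = 0.00348). Bcar1, the scaffold p130Cas, rose by 0.42 (SE 0.11) and Pdlim7, a PDZ and LIM domain protein of actin filaments, by 0.41 (SE 0.08). The call of Bcar1 was lost without control replicate 1, control replicate 3 or RAM siRNA replicate 1, with an adjusted p of up to 0.0699. The median of the list was 0.08 (0.0495 to 0.125 when 1 library was left out) and its most abundant gene was Itgb1, a beta integrin. In polysomes 0 were called without the block and 1 rose with it (background 9.68% higher and 4.97% lower), or 3 rose and 2 fell without replicate 2 (background 21.3% and 14.3%).

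Genes for the regulators of the set were examined next, against an input background of 6.95% higher and 5.94% lower without the replicate block and 20.3% and 19% with it. Of 6 genes for SRF and its cofactors, 0 were called in input without the replicate block and 3 rose and 1 fell with it (edgeR's quasi-likelihood test). Their median was 0.07 (0.0538 to 0.103 when 1 library was left out). Of 7 immediate early SRF targets, 1 rose without the block, the transcription factor gene Egr2 at 0.56 (SE 0.13), and 2 rose and 2 fell with it. Egr2 was not called without control replicate 1 or control replicate 2, with an adjusted p of up to 0.0527. Of 13 genes for Hippo kinases and inhibitors of YAP, 1 rose and 0 fell without the block and 1 rose and 5 fell with it, and the median was -0.08. Lats2, a Hippo kinase gene that YAP itself induces, rose by 0.41 (SE 0.12), a call that was lost in 6 of 8 cases when a library was left out. Of 6 YAP, TAZ and TEAD genes, Tead3 rose by 0.47 (SE 0.13) and was lost in 4 of 8 cases, and with the block 1 rose and 1 fell. In polysomes none of these regulator genes was called without the block in edgeR, and with it 1 SRF cofactor gene rose and 1 immediate early gene fell, against a background of 9.68% higher and 4.97% lower. Without replicate 2 the blocked fit called 2 SRF and cofactor genes higher and 1 lower, 3 immediate early genes lower, 2 Hippo genes lower and 0 YAP, TAZ and TEAD genes, against 21.3% higher and 14.3% lower.

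Control polysome loading was also examined for these regulators. Relative to input, 5 of 6 genes for SRF and its cofactors, 11 of 13 Hippo genes and 5 of 6 YAP, TAZ and TEAD genes were lower in control polysomes, and 0, 1 and 0 were higher (edgeR's quasi-likelihood test, adjusted p under 0.05). Of all genes tested, 34.3% were lower and 33.1% higher. With the replicate block the counts of the 3 lists were unchanged, with a background of 37.2% lower and 35.1% higher. Their median log2 differences were -1.19, -1.05 and -0.95, against 0.00 over all genes tested. Srf, the most abundant of its list, had -0.97 (SE 0.15, adjusted p = 1.83e-04) and Taok1, a kinase upstream of the Hippo cascade, had -2.15 (SE 0.22, adjusted p = 7.52e-06). Yap1, the most abundant of its list, did not pass (adjusted p = 0.992, edgeR's quasi-likelihood test). Among the immediate early SRF targets, 1 to 3 were higher and 0 lower in control polysomes when 1 library was left out. The median of that list was then 0.106 to 0.231.

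Other transcripts known as YAP and TAZ targets were compared in the same way. Of 17 tested, of 21 listed, 2 rose and 1 fell in input without the replicate block, and 8 rose and 2 fell with it, against 6.95% higher and 5.94% lower without the block and 20.3% and 19% with it over all genes tested (edgeR's quasi-likelihood test). The median was 0.18, with 0.0859 without RAM siRNA replicate 2, 0.108 without control replicate 4 and 0.121 without RAM siRNA replicate 4. Igfbp3, which encodes an insulin-like growth factor binding protein, rose by 0.66 (SE 0.09, adjusted p = 5.89e-04), and Lats2 is the second. Gadd45a, a stress and DNA damage response gene, fell by 0.53 (SE 0.07, adjusted p = 5.35e-04), and Amotl2 was the most abundant. The calls of Igfbp3 and Gadd45a were kept whichever input library was left out. In polysomes 0 were called without the block, and with it 3 rose and 2 fell (background 9.68% and 4.97%), or 7 and 4 without replicate 2 (background 21.3% and 14.3%). Of 4 other CCN genes only Ccn3 reached the filter, with 1.64 CPM on average. Its input change of 0.83 passed edgeR's quasi-likelihood test with the block (adjusted p = 0.0403) and not without it (adjusted p = 0.139). In polysomes Ccn3 had 1.08 (SE 0.29, adjusted p = 0.222) without the block and 1.10 (SE 0.21, adjusted p = 0.00232) with it, by the same test. Without replicate 2 the blocked fit gave 1.26 (SE 0.22, adjusted p = 2.09e-04, edgeR's quasi-likelihood test).

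**Figure D4:**
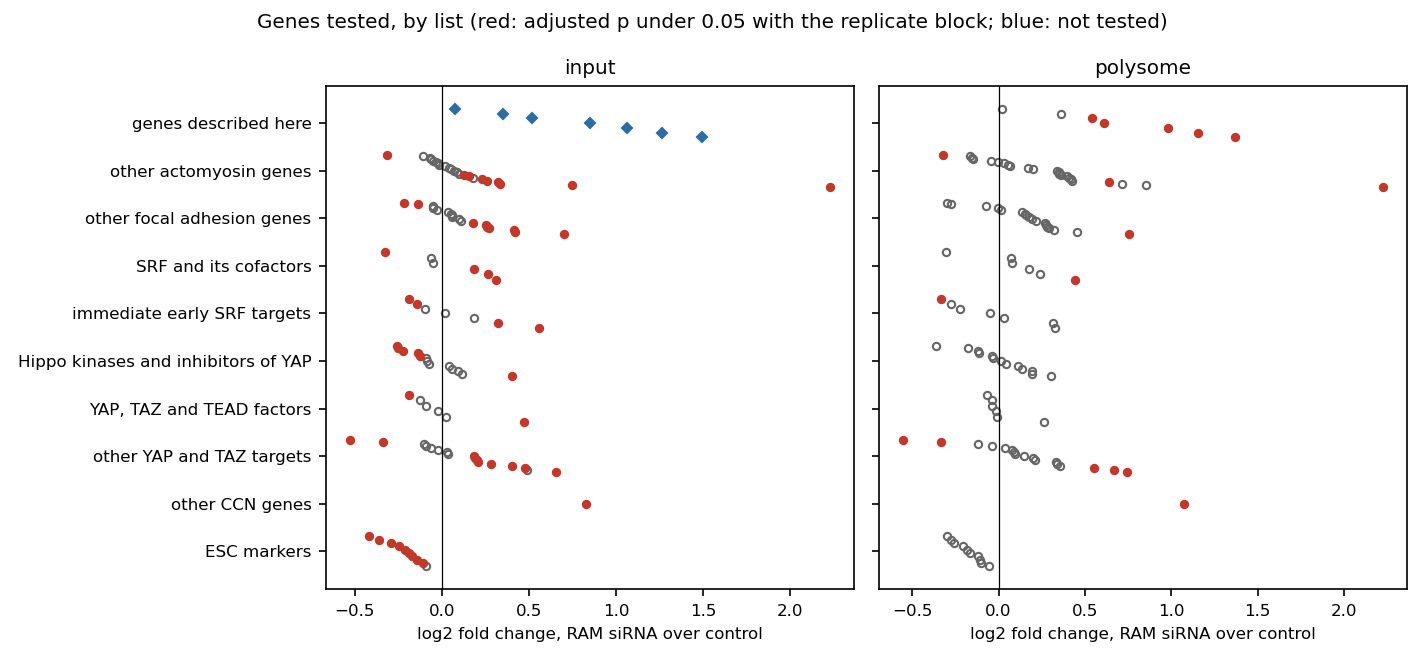
The x axis gives the log2 fold change of RAM siRNA over control in the fit without the block, in input (left) and polysomes (right), and each row is a list of genes. Red points passed an adjusted p under 0.05 with the replicate block, open points did not, and blue diamonds were not tested. Acta1 is the actomyosin point at 2.23 in both panels, and the ESC markers lie below 0.

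Markers of ESCs and of other cell types were set beside the contractile genes. All 10 ESC markers were tested and all were below 0 in input, with 4 called lower without the replicate block and 9 with it (background 5.94% and 19%), and their summed level was 5207 ± 191 CPM in control and 4484 ± 268 CPM with RAM siRNA (SD, n = 4). Fgf4 fell by 0.42, Dppa5a by 0.36, Nanog by 0.29 and Esrrb by 0.25 (edgeR's quasi-likelihood test), and Tdgf1 was the most abundant. Nanog and Esrrb lost their calls in 5 and 6 of the 8 cases in which a library was left out. In polysomes all 10 were also below 0, and the lowest adjusted p with the block was 0.0877, that of Nanog. Without replicate 2 the blocked fit called Nanog and Esrrb lower (background 14.3% lower), and Dppa5a and Tdgf1 were above 0 (0.01 and 0.04).

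Of 9 smooth muscle markers, which include Acta2 and Cnn1, only 3 reached the filter. Their summed level was 38.7 ± 1.57 CPM in input control and 42.2 ± 1.90 CPM in input RAM siRNA (SD, n = 4), most of it Smtn. Myh11, the smooth muscle myosin heavy chain, averaged 0.157 CPM and Myocd, the smooth muscle cofactor of SRF, 0.0583 CPM over the 16 libraries. Smtn rose by 0.33 as given above, and Synm, which encodes the intermediate filament protein synemin, had 0.28 (SE 0.13), with an adjusted p of 0.192 without the replicate block and 0.0346 with it. Des, which encodes the muscle intermediate filament desmin, fell by 0.84 (SE 0.15, adjusted p = 0.00379, edgeR's quasi-likelihood test). In polysomes with the block it fell by 0.92, and by 0.72 without replicate 2.

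Of 9 fibroblast markers 3 reached the filter, and the sum was 22.4 ± 1.56 CPM in control and 29.2 ± 4.92 CPM with RAM siRNA (SD, n = 4), with Thy1 the most abundant. Below the filter, Col1a1 averaged 1.04 CPM, Col1a2 0.478, Postn 0.0756, Lum 0.0422, Dcn 0.0391 and Col3a1 0.00709 CPM over the 16 libraries. Pdgfrb rose by 0.52 (SE 0.14), a call lost in 5 of 8 cases when a library was left out. Pdgfra had 0.44 (SE 0.17) in input, with an adjusted p of 0.112 without the replicate block and 0.00309 with it (edgeR's quasi-likelihood test). Both receptor genes rose in polysomes with the block (adjusted p = 0.0170 for Pdgfra and 0.0225 for Pdgfrb, or 0.0215 and 0.0165 without replicate 2, edgeR's quasi-likelihood test). The polysome background was 9.68% higher and 4.97% lower with the block, and 21.3% and 14.3% without replicate 2. Extraembryonic endoderm markers, of which 5 of 8 reached the filter, summed to 886 ± 116 and 980 ± 151 CPM, mostly Sparc. Gata6 and Dab2 rose by 0.61 and 0.55, calls that were lost in 2 and 6 of 8 cases (edgeR's quasi-likelihood test). Col4a1 had 0.28 (SE 0.09), with an adjusted p of 0.0729 without the replicate block and 6.37e-05 with it (edgeR's quasi-likelihood test). The input background was 6.95% higher and 5.94% lower without the block, and 20.3% and 19% with it. In polysomes with the block Dab2 rose by 0.52 (background 9.68% higher). Without replicate 2 Dab2 and Sox17 rose by 0.43 and 0.78 (background 21.3% higher). Mesoderm markers summed to 18.4 ± 0.565 and 15.8 ± 1.09 CPM, with 2 of 6 in the fit and Eomes the most abundant. Eomes had -0.31 (SE 0.11) in input, with an adjusted p of 0.0798 without the replicate block and 0.0068 with it (edgeR's quasi-likelihood test). No marker was at 0 in all 16 libraries, and the part of these cell types in the values of the 10 genes was not tested.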

How the data were processed

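RNA from the input and polysomes of 16 samples was sequenced. The authors mapped reads with STAR 2.5.1b to mm10 (GRCm38), counted them per Ensembl gene with HTSeq and deposited raw counts per gene without normalization. The strand and overlap settings of the counting and the annotation release are not given in the sources used here. Whether the counting told apart reads of genes that overlap on opposite strands is therefore not known. Groups and replicate numbers came from the sample labels, and 0 columns belonged to other samples. Gene symbols were found for 46488 of the 46983 identifiers. Positions and exon lengths came from GENCODE M21 on GRCm38, and promoters from RefSeq.

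The 12805 genes that reached 1 CPM in 10 or more of the 16 libraries were tested with edgeR 4.0.16 in R 4.3.3 (TMM, quasi-likelihood test, Benjamini-Hochberg adjustment, threshold 0.05). RAM siRNA was compared with control in the 8 libraries of each fraction, and polysomes with input in control libraries, the latter without a test for the 10 genes. The change in loading used all 16. CPM values used TMM factors over all 16 libraries, and pair differences and permutation tests used log2(CPM + 1). Tested on simulated data made from the input libraries (12805 genes), the procedure recovered 192 of 200 changed genes with 7 false calls. The planted changes were of 1 on the log2 scale, up or down, without differences between replicates. Smaller changes and the polysome comparison were not simulated.

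The replicate numbers are in the labels, and the paper describes independent replicates. Deviations from the group mean were correlated between same-numbered libraries of each pair of groups, over 9135 genes. Pearson's r was 0.402 to 0.800 between the input groups, 0.624 to 0.946 between the polysome groups, 0.239 to 0.575 between control fractions and 0.298 to 0.712 between RAM siRNA fractions. The numbers were therefore taken to pair the libraries, and each fit was repeated with the number as a block.

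The 10 genes and the lists were chosen with earlier results of these data known. Named genes were Ramac, the 10 genes, up to 4 genes called in each direction per list with the most abundant, and the 10 genes of highest r with the mean profile. Alternatives were DESeq2 1.42.0, RLE scaling, no filter on low counts, pseudocounts of 0.5 and 2 CPM, the block, each library left out, and the fits within replicates 1 and 2 and within replicates 3 and 4. The blocked fits without replicate 2 in polysomes and without replicate 4 in input were chosen after seeing the data. P-values set a difference against the spread between these libraries, or, with the block, against the spread left within same-numbered pairs. The permutation tests and the fits without the block did not use the pairing.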

Additional observations from a re-analysis of the deposited data

Results flagged for a closer look

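Ramac in input RAM siRNA replicate 2 had 2.65 CPM, apart from the other 3 libraries of its group, which had 3.09 to 3.15 CPM. Smtn in polysome RAM siRNA replicate 2 had 59.5 CPM, apart from the other 3 libraries of its group, which had 20.6 to 23.9 CPM. These were 2 of 49 groups of 4 libraries examined over Ramac, the 10 genes, Acta1 and Smtn, leaving out groups that averaged under 3 reads, and chance gives about 1 in 20. Acta1 and Smtn were added after their values were seen.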

How the results depend on the processing

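In input, 1651 genes were called. The count was 5028 with the replicate block, 4967 with the block and without replicate 4, 2629 within replicates 1 and 2, 0 within replicates 3 and 4 (2 against 2 libraries), and 913 to 2506 when 1 library was left out, highest without RAM siRNA replicate 4. In polysomes 3 genes were called, 300 with DESeq2, 39 with no filter, 1875 with the replicate block, 4558 with the block and without replicate 2, 0 within replicates 1 and 2, 0 within replicates 3 and 4, and 0 to 48 when 1 library was left out, highest without RAM siRNA replicate 2. For the loading change the count was 0, and 1 with DESeq2 and 2 with the replicate block. For control loading it stayed between 7374 and 12094. Leaving out the filter moved the median of the filtered genes in control loading by 0.14.

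Beside the calls given above, the block changed no other call in polysomes of the 7 genes in the fits. In control loading Tpm1 (-0.06) had 0.0732 with no filter, -0.237 to 0.0724 when 1 library was left out (above 0 without polysome control replicate 2) and 0.0941 within replicates 3 and 4. In polysomes Cnn2 (0.02) had -0.0367 with no filter, -0.157 to 0.156 when 1 library was left out (below 0 without control replicates 2 or 3 or RAM siRNA replicate 4) and -0.10 within replicates 1 and 2. Vcl (0.36) had -0.305 to 0.622 when 1 library was left out (below 0 without RAM siRNA replicate 2), -0.0817 within replicates 3 and 4 and -0.0536 with the block and without replicate 2. The cause was not tested. Of 21 named pathway and marker genes called in input, 9 kept their call whichever library was left out. Low counts limit Acta2, Cnn1 and Ankrd1.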
